A study of Mus musculus with 4 samples.

Results

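The genes described here are the mouse zinc finger genes named Zfp followed by a number only, other than Zfp36, that held at least 100 read counts summed over the 4 libraries. The deposited counts listed 55401 genes, of which 375 had such a name, and 165 of these reached the minimum. The other 210 did not, 120 of them because no library held a count and 90 with 1 to 99 counts. The members were thus chosen by name and by the sum of counts over both genotypes. A gene at 0 in both libraries of one genotype could reach that sum through the other genotype alone and had to differ, so these genes were counted apart and given no test. The sums of the 165 members ran from 101 to 46409 counts, with a median of 428. Just inside the minimum were Zfp821 (10 and 7 counts against 48 and 36) and Zfp994 (0 and 0 counts against 65 and 36), and just outside were Zfp985 (18 and 22 counts against 29 and 27) and Zfp319 (0 and 0 counts against 45 and 49). Here and below, counts are given for the NSD1B WT libraries 1 and 2 first and the NSD1B KO libraries 1 and 2 second.

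RNA was sequenced from B220+ cells sorted from the spleen of C57BL/6J mice, with 2 NSD1B WT and 2 NSD1B KO libraries. By the study's methods, NSD1B WT mice were Mb1-Cre+ NSD1+/+ littermates and NSD1B KO mice were Mb1-Cre+ NSD1fl/fl, with loxP sites around exons 6 to 8 of Nsd1, which encodes a methyltransferase of lysine 36 of histone H3. Both genotypes therefore carried the Cre recombinase, which is driven by the B lineage gene Mb1 (Cd79a), and males and females of 7 to 9 weeks were used without the sex of a library being given. Nothing in the labels says whether the 2 libraries of a genotype came from different mice, so the p-values measure only the spread between these libraries.

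Zinc finger genes of this kind encode proteins with tandem C2H2 fingers, short loops held by a zinc ion in which each finger can contact a few bases of DNA. Many also carry a KRAB domain, which recruits the corepressor TRIM28 (KAP1), and through it the histone H3 lysine 9 methyltransferase SETDB1 and heterochromatin proteins, to the bound sites, among them endogenous retroviruses and imprinted regions. In the mouse, KRAB zinc finger genes lie in clusters of closely related copies. Others of the family have no KRAB domain and act as activators, RNA-binding proteins or ribosome assembly factors.

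When the main GENCODE M21 transcript of each gene was translated, 161 of the 165 members held at least 1 C2H2 finger pattern, with a median of 11 and at most 29 fingers. The 4 members without one were Zfp839, Zfp125, Zfp451 and Zfp330, of which Zfp125 is annotated as a transcribed pseudogene and the other 164 members as protein-coding. A KRAB domain was found in 103 members by a profile search and not in 62. Chromosome 7 held 33 members, chromosome 17 held 28 and chromosome 13 held 17.

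Promoter windows from RefSeq (GRCm38.p6, which is the mm10 build; 250 bases before to 50 after the gene start) matched 139 members. The 4 windows below come from one run of members on chromosome 17 in which nearby genes differed between the genotypes in opposite ways, and CpG dinucleotides are in capitals. Zfp677 and Zfp53 lie on the plus strand with starts 105240 bases apart and Zfp51 between them. The window of Zfp943 also covers the start of Zfp942 on the other strand, 95 bases away, and the window of Zfp758 covers that of Zfp944, 63 bases away, so each pair shares a promoter region and is transcribed in diverging directions.
Zfp677, chr17:21383498-21383797, plus strand: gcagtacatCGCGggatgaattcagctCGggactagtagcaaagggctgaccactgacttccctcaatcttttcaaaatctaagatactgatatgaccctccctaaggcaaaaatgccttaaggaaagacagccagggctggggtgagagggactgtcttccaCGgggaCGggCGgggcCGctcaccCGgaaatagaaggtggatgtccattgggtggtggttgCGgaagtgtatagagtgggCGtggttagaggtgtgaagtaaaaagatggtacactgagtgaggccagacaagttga
Zfp53, chr17:21488738-21489037, plus strand: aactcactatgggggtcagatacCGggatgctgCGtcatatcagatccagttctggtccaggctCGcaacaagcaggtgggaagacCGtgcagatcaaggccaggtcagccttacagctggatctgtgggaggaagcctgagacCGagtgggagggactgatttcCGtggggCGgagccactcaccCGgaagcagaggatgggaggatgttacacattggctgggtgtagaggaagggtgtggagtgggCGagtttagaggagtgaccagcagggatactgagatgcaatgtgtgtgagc
Zfp943, chr17:21962309-21962608, plus strand: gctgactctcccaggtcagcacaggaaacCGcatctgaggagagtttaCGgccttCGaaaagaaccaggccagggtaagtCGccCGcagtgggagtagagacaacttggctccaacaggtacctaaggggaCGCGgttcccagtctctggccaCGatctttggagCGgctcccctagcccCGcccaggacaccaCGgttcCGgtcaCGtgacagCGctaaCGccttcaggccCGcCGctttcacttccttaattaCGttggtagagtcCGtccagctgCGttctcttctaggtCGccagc
Zfp758, chr17:22361213-22361512, plus strand: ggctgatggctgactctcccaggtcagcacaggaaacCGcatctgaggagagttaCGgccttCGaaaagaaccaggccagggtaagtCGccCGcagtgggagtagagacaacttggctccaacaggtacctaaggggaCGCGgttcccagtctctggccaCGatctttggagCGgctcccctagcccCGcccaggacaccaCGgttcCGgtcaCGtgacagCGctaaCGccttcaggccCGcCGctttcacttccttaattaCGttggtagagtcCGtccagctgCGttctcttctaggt

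The libraries held between 6769118 and 7566834 counts on genes, and between 12383 and 13084 genes had a count in a library. Nsd1 itself had 497 and 480 counts against 284 and 280 (log2 fold change -0.74 ± 0.11 SE, adjusted p = 8.08e-08), and the counts are per gene, so the deleted exons were not measured apart. All 12 B cell markers examined were counted in the NSD1B WT libraries and 11 in the NSD1B KO libraries, where Fcer2a was at 0; 2 of them rose, 7 fell and 2 did not pass, and their summed level was 17885 to 18039 against 15312 to 16401 CPM (counts scaled to the same library total by the TMM method). Of the erythroid markers, Hba-a1 and Hbb-bs rose (log2 fold changes 5.80 ± 0.12 and 5.80 ± 0.12 SE), with a summed level of 23.4 to 25.7 against 1243 to 1497 CPM, while Klf1 was at 0 in all 4 libraries. The summed level of the 6 myeloid markers, most of it Lyz2, was 4523 to 4629 against 5643 to 5983 CPM. Of these, Lyz2 and Csf1r rose (log2 fold changes 0.35 ± 0.08 and 3.87 ± 0.20 SE), Itgam fell (-0.80 ± 0.12 SE), S100a8 was at 0 in NSD1B KO, S100a9 at 0 in NSD1B WT and Ly6g at 0 in all. The 6 T cell markers summed to 52.5 to 53.2 against 59.3 to 64.8 CPM, with Cd3d and Cd3g higher (0.93 ± 0.23 and 1.07 ± 0.16 SE), Trac lower (-1.29 ± 0.19 SE), Cd3e at 1 to 4 counts and Cd4 and Cd8a at 0. The 3 NK cell markers summed to 55.8 to 59.6 against 79.7 to 79.9 CPM, with Nkg7 higher (0.55 ± 0.10 SE), Klrb1c at 26 and 21 counts against 0 and 0, and Ncr1 at 0. The 4 dendritic markers summed to 62.4 to 67.9 against 106 CPM in both NSD1B KO libraries with Siglech, Zbtb46 and Flt3 at 0, the 4 plasma cell markers to 216 to 231 against 170 to 174 CPM with Prdm1 higher, Jchain and Xbp1 lower and Sdc1 at 0, the 2 platelet markers to 154 to 167 against 223 to 232 CPM with Itga2b at 0, and the 2 stroma markers to 69.0 to 76.3 against 80.3 to 91.3 CPM with Col1a1 at 0. The part of these cell types in the results below was not tested, and in bulk RNA fewer cells of a type and less RNA per cell cannot be told apart.

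As a family, the numbered Zfp genes differed between the genotypes in both directions and by large amounts. Of the 165 members, 36 had no count in one genotype: 15 in both NSD1B WT libraries (9.09%, against 4.41% of all 9516 genes of at least 100 counts) and 21 in both NSD1B KO libraries (12.7% against 6.69%). A gene was called higher or lower when its fold change was above 1.2 with an adjusted p below 0.05 in the quasi-likelihood test of edgeR. Of the 129 members counted in both genotypes, 57 were higher in NSD1B KO, 53 were lower and 19 did not pass. This was 85.3% of them, where 75.2% of all genes of at least 100 counts and counted in both genotypes passed (37.7% higher and 37.5% lower). Of all 11657 tested genes, 78.2% passed, but these also include genes of fewer counts and genes at 0 in one genotype. The shares of the members were 44.2% higher and 41.1% lower. These differences between the members and all genes were not tested.

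**Figure D1:**
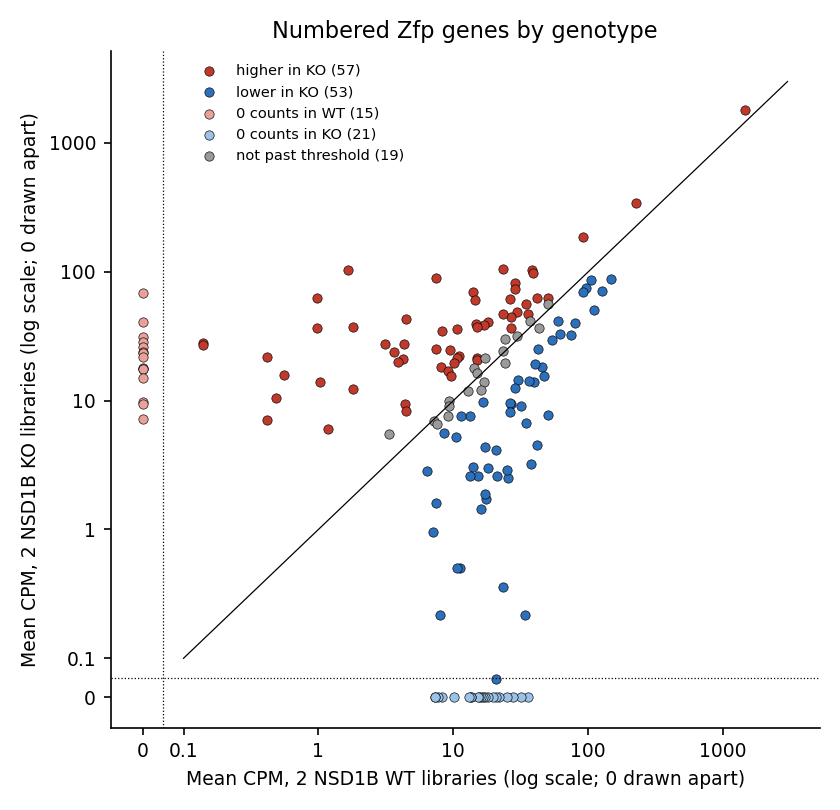
Mean level of each of the 165 numbered Zfp members in the 2 NSD1B WT libraries (x axis) and the 2 NSD1B KO libraries (y axis), in CPM on log scales, with genes at 0 in a genotype drawn beyond the dotted lines and the line of equal level in black. The members spread widely to both sides of the line, with 57 higher, 53 lower, 19 not past the threshold, 15 at 0 counts in NSD1B WT and 21 at 0 counts in NSD1B KO.

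The sum over the members differed by less than these opposite differences. The 165 members together held 5299 and 5166 CPM in the NSD1B WT libraries and 6299 and 5916 CPM in the NSD1B KO libraries, and without Zfp706, the most abundant of them, 3812 and 3724 against 4388 and 4206 CPM. The 57 higher members summed to 2548 and 2454 against 4643 and 4327 CPM, and the 53 lower members to 2011 and 1989 against 902 and 869 CPM. The median log2 fold change of the 129 members counted in both genotypes was 0.10, beside -0.01 over all such genes, and became -0.11 after removal of the part that follows exon length and GC content. The median absolute log2 fold change was 1.32, beside 0.80 over all such genes, and 47 members (36.4%, against 19% of all such genes) were past 2 on the log2 scale, 24 upward and 23 downward. With the 36 members at 0 set to their bound against a floor of 3 counts, the median was -0.04 and the median absolute value 2.07, beside -0.04 and 0.96 over all genes treated likewise.

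The libraries of a genotype lay close together by comparison. The median absolute log2 ratio of the levels in the 2 NSD1B WT libraries was 0.152 over 149 members, and that in the 2 NSD1B KO libraries was 0.188 over 143. Of the 129 members counted in both genotypes, the 2 genotypes did not overlap in 122 (94.6%, against 87% of all such genes), with the NSD1B KO libraries above in 64 and below in 58, and they overlapped in 7. No member was at 0 in 1 library of a genotype with 25 or more counts in the other, whereas 36 to 38 members were so between any NSD1B WT and any NSD1B KO library. The latter include the 36 members at 0 in one genotype, which had to differ by the way members were chosen. The cross-genotype count is therefore a description only, and it was not made over all genes.

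Of the 15 members at 0 in NSD1B WT, Zfp677 was the most abundant, with 0 and 0 counts against 519 and 435. Taking 3 counts over both libraries as the floor of a genotype at 0, it was at least 330-fold higher in NSD1B KO. Zfp677 is a KRAB zinc finger gene with 16 fingers, and its only counts came from the NSD1B KO libraries, which were close to each other. Zfp35, with 17 fingers and no KRAB domain, had 0 and 0 counts against 278 and 284 and was at least 195-fold higher. Zfp773 had 0 and 0 counts against 242 and 197, at least 152-fold higher, and Zfp763 had 0 and 0 counts against 238 and 162, at least 138-fold higher. Both encode KRAB zinc finger proteins. Zfp125, the transcribed pseudogene, had 0 and 0 counts against 186 and 179 (at least 126-fold), although 18.0% of its exon length overlaps another gene on the same strand. Zfp296, a gene without KRAB that is active in embryonic stem cells, had 0 and 0 counts against 194 and 137 (at least 115-fold). The other 9 were Zfp770, Zfp507, Zfp78, Zfp595, Zfp84, Zfp771, Zfp316, Zfp667 and Zfp994, named to complete the list after their values were seen, with at least 35.0-fold to 113-fold. The single libraries of NSD1B KO held 36 to 519 counts in the 15 genes, and 9 of the genes have a KRAB domain.

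Of the 21 members at 0 in NSD1B KO, Zfp764 held the most counts, with 250 and 267 counts against 0 and 0, and was at least 166-fold lower in NSD1B KO. Zfp942 had 254 and 202 counts against 0 and 0 (at least 146-fold lower) and Zfp931 had 189 and 213 counts against 0 and 0 (at least 129-fold lower). The libraries of NSD1B WT were close in Zfp764 and Zfp931 and further apart in Zfp942 (35.5 and 27.6 CPM). Zfp563 had 182 and 179 counts against 0 and 0 (at least 116-fold lower), Zfp599 had 140 and 173 counts against 0 and 0 (at least 100-fold lower) and Zfp719 had 152 and 147 counts against 0 and 0 (at least 96.0-fold lower). All 6 encode proteins with a KRAB domain and 7 to 13 fingers. The other 15 were Zfp90, Zfp457, Zfp65, Zfp383, Zfp810, Zfp709, Zfp839, Zfp141, Zfp689, Zfp456, Zfp39, Zfp493, Zfp467, Zfp524 and Zfp934, also named to complete the list, at least 33.7-fold to 92.1-fold lower. Single NSD1B WT libraries held 44 to 267 counts in the 21 genes, and 18 of the 21 have a KRAB domain. The exons of Zfp90 overlap a gene on the opposite strand over 79.5% of their length and those of Zfp456 over 52.5%, and whether strand was used in counting is not given, so reads of both strands cannot be told apart there.

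Near copies can share reads, so the members were searched for stretches of 75 bases that also occur in another gene. Of the 165 members, 100 had none and 24 shared over 10% of theirs. Among the 15 members at 0 in NSD1B WT, 11 shared none and 0 shared over 10%, and among the 21 at 0 in NSD1B KO, 7 shared none and 5 shared over 10%. The 5 were Zfp524 (55.8%), Zfp931 (30.1%), Zfp934 (28.1%), Zfp764 (13.6%) and Zfp456 (11.4%). In Zfp524, 46.5% of the exon length also overlaps another gene on the same strand. Neither shared sequence nor any exon overlap was present in 14 of the 36, among them Zfp677, Zfp35, Zfp763, Zfp563 and Zfp719.

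**Figure D2:**
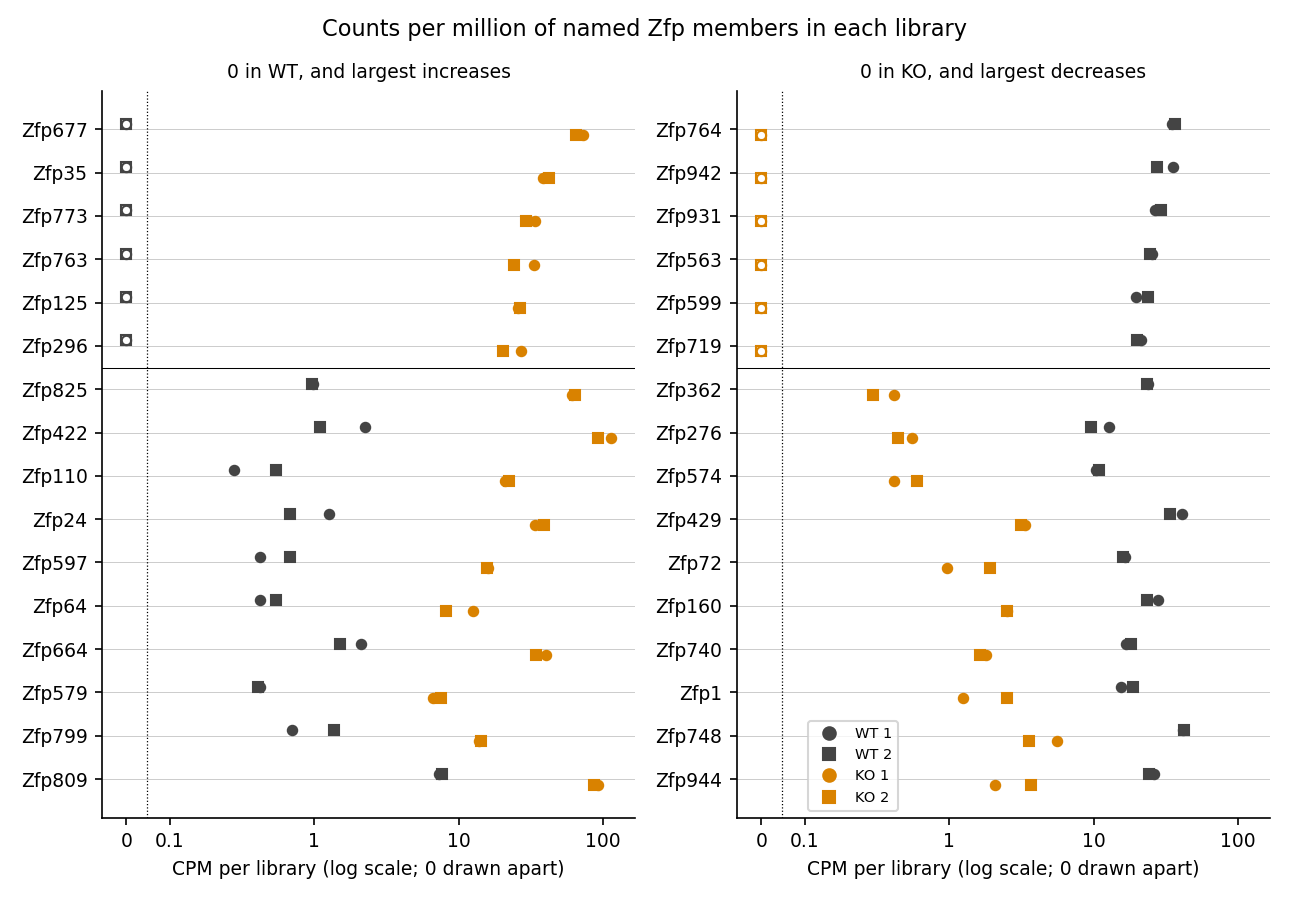
Level of 32 named members in each library, in CPM on a log scale with 0 drawn apart as open symbols, with NSD1B WT libraries in grey, NSD1B KO libraries in orange, library 1 as circles and library 2 as squares (equal values cover each other). Above the black lines are 6 members at 0 in each genotype, and below them the 10 largest increases (left) and decreases (right). All were chosen by rules under which the libraries of the 2 genotypes lie apart.

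The share of genes at 0 in one genotype was smaller where more counts lay behind a gene, among the members as among all genes. From 100 to below 200 summed counts, 11 of 24 members (45.8%) were at 0 in one genotype, against 35.7% of all 1589 genes. From there to below 400 counts the shares were 34.6% (18 of 52) and 19.2%, from 400 to below 800 counts 13.3% (6 of 45) and 5.83%, and at 800 or more counts 2.27% (1 of 44) and 0.504%. The 1 member of the highest class was Zfp677. The members' share was the larger in each of the 4 classes, and no test of that difference was made.

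**Figure D3:**
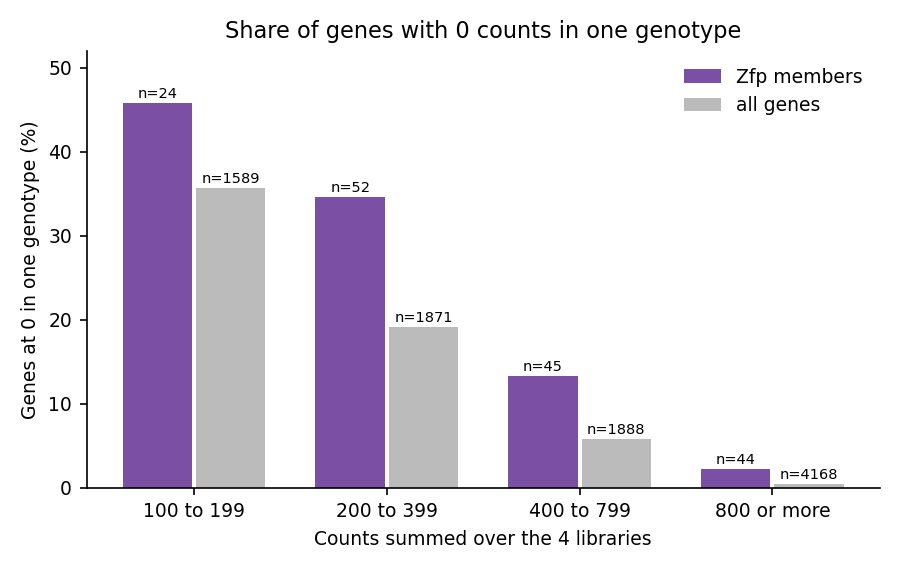
Percent of genes with 0 counts in both libraries of one genotype and counts in the other, in 4 classes of summed counts, for the numbered Zfp members (purple) and all genes (grey), with the number of genes above each bar. The share runs from 45.8% down to 2.27% in the members and from 35.7% down to 0.504% in all genes.

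The 10 largest increases were taken from called members with at least 4 counts in each genotype and genotypes that do not overlap. Their log2 fold changes were 3.59 to 5.98 (SE 0.14 to 0.50). Some, such as Zfp110 and Zfp579, passed the filter of the test only through NSD1B KO, so no p-value is given. Zfp825, a KRAB zinc finger gene, had 7 and 7 counts against 437 and 427, a log2 fold change of 5.98 ± 0.23 SE. Of its 75-base stretches, 14.3% occur in another gene. Zfp422 had 16 and 8 counts against 811 and 622 (5.94 ± 0.20 SE). It has 5 fingers and no KRAB domain, and in both genes the NSD1B WT libraries held few reads. Zfp110, which encodes the neurotrophin receptor-interacting factor NRIF, had 2 and 4 counts against 151 and 150 (5.65 ± 0.38 SE). Zfp24, a SCAN domain gene known from myelination, had 9 and 5 counts against 242 and 263 (5.20 ± 0.28 SE), and Zfp597 had 3 and 5 counts against 115 and 105 (4.79 ± 0.39 SE). Zfp64, whose human counterpart activates the MLL promoter, had 3 and 4 counts against 91 and 55 (4.38 ± 0.46 SE). Zfp664 had 15 and 11 counts against 288 and 230 (4.35 ± 0.25 SE), Zfp579 had 3 and 3 counts against 48 and 51 (4.04 ± 0.50 SE) and Zfp799 had 5 and 10 counts against 99 and 96 (3.73 ± 0.36 SE). That both NSD1B KO libraries lie above both NSD1B WT libraries in each of these was a condition of the choice.

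Zfp809 completed the 10 and differed from the others in being well counted in both genotypes. It encodes a KRAB zinc finger protein that binds the primer binding site of murine leukaemia virus and silences proviruses. It had 52 and 56 counts against 668 and 584, or 7.47 ± 0.27 against 89.8 ± 4.26 CPM (SD, n = 2), a log2 fold change of 3.59 ± 0.14 SE. Its exons overlap no other gene and share no stretch of 75 bases with one.

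The 10 largest decreases under the same rule had log2 fold changes of -5.96 to -3.12 (SE 0.20 to 0.44). Some, such as Zfp362, Zfp276 and Zfp574, passed the filter of the test only through NSD1B WT, so no p-value is given. Zfp362 had 169 and 170 counts against 3 and 2 (-5.96 ± 0.38 SE), and Zfp276 had 91 and 70 counts against 4 and 3 (-4.42 ± 0.44 SE). Zfp574 had 74 and 80 counts against 3 and 4 (-4.36 ± 0.44 SE). None of the 3 has a KRAB domain, and each kept a few reads in the NSD1B KO libraries. Zfp429 had 291 and 249 counts against 24 and 21 (-3.52 ± 0.22 SE), although 12.6% of its 75-base stretches occur in another gene. Zfp72 had 117 and 116 counts against 7 and 13 (-3.47 ± 0.33 SE) and Zfp160 had 200 and 170 counts against 18 and 17 (-3.34 ± 0.26 SE). Zfp740 had 119 and 132 counts against 13 and 11 (-3.32 ± 0.31 SE) and Zfp1 had 111 and 137 counts against 9 and 17 (-3.18 ± 0.31 SE). Zfp748, with 23 fingers and a KRAB domain, had 295 and 309 counts against 40 and 24 (-3.18 ± 0.20 SE), and Zfp944 had 187 and 177 counts against 15 and 25 (-3.12 ± 0.26 SE). That the genotypes do not overlap in these 10 was a condition of their choice.

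A further 5 members held 1 to 3 counts in one genotype and are named for that reason, after their values were seen. Zfp772 had 2 and 0 counts against 201 and 187, a ratio of 201 (95% counting interval 55.4 to 1669), and Zfp58 had 1 and 1 counts against 218 and 157, a ratio of 195 (53.5 to 1614). Of the exon length of Zfp58, 50.2% overlaps another gene on the same strand. In the other direction, Zfp971 had 140 and 160 counts against 1 and 0, 289-fold lower (51.5 to 11448), Zfp273 had 251 and 236 counts against 1 and 2, 156-fold lower (53.2 to 761), and Zfp433 had 69 and 46 counts against 1 and 2, 36.9-fold lower (12.3 to 182). Of the 75-base stretches of Zfp433, 90.7% occur in another gene, so its counts are uncertain. The share was 49.6% in Zfp58, 21.3% in Zfp971 and 12.8% in Zfp273. The intervals are exact binomial ones and cover counting error only.

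The 8 members of highest mean CPM had log2 fold changes of -0.83 to 1.04. Per kilobase of exon, Zfp706 stood highest in both genotypes, with 294 against 363 CPM per kilobase. It was followed in NSD1B WT by Zfp51 (57.2 against 34.1), Zfp207 (33.9 against 51.5), Zfp958 (31.3 against 13.7) and Zfp53 (29.6 against 60.9), and in NSD1B KO by Zfp53, Zfp207, Zfp825 (0.624 against 40.0) and Zfp869 (26.2 against 39.2), Zfp958 and Zfp869 being named after their values were seen. Zfp706, which promotes the exit of embryonic stem cells from self-renewal, had 10622 and 10537 counts against 13747 and 11503 (0.31 ± 0.08 SE, adjusted p = 0.000322), and its difference no longer passed when library size alone was used (log2 fold change 0.23), when the length and GC trend was removed (0.08) or without NSD1B KO library 1 (0.22). Zfp207 (BuGZ), a partner of the spindle checkpoint protein BUB3, had 1641 and 1617 counts against 2549 and 2226 (0.60 ± 0.08 SE). Zfp53 had 694 and 616 counts against 1370 and 1229 (1.04 ± 0.09 SE). Zfp51, its KRAB zinc finger neighbour, had 1071 and 1057 counts against 653 and 571 (-0.74 ± 0.09 SE), so that Zfp51 was above Zfp53 per kilobase in NSD1B WT and below it in NSD1B KO. Zfp106, an RNA-binding protein needed by motor neurons, had 901 and 918 counts against 536 and 448 (-0.83 ± 0.10 SE). The other members among the 8 of highest CPM were slightly lower in NSD1B KO, with Zfp871 at -0.38 ± 0.10 SE and Zfp638, which silences unintegrated retroviral DNA, at -0.38 ± 0.10 SE, the latter not past the threshold without NSD1B KO library 2 (-0.22). Zfp386 had -0.27 ± 0.10 SE (adjusted p = 0.0095) and did not pass without NSD1B WT library 1 (-0.16), without NSD1B KO library 2 (-0.21), with the size factors of DESeq2 (-0.26), in the DESeq2 test (-0.25) or with no filter beyond 1 count (-0.26).

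Among 30 Zfp genes of known function, 19 were members, and of these 9 were higher, 4 lower and 6 not past the threshold. The 68.4% called compares with 75.2% of all genes of at least 100 counts and counted in both genotypes. The factors that act on promoters and chromatin went both ways. Zfp148 (ZBP-89), which binds GC-rich promoters, had 161 and 174 counts against 757 and 709 (2.18 ± 0.11 SE), and Zfp131, a zinc finger gene with a BTB domain, had 22 and 23 counts against 179 and 204 (3.14 ± 0.24 SE). Zfp445, a KRAB zinc finger protein that maintains imprints, had 186 and 200 counts against 303 and 316 (0.74 ± 0.14 SE), whereas Zfp57, the other such protein, had no count in any library. Zfp143, an activator bound at many promoters and at small nuclear RNA genes, had 204 and 184 counts against 59 and 71 (-1.52 ± 0.20 SE), and Zfp292 had 266 and 258 counts against 112 and 85 (-1.36 ± 0.16 SE). Of the proteins that act in ribosome assembly, splicing and ubiquitin transfer, Zfp593, which takes part in maturation of the large ribosomal subunit, had 86 and 68 counts against 175 and 123, or 10.7 ± 1.93 against 21.3 ± 4.27 CPM (SD, n = 2, adjusted p = 2.23e-05), with 77.9% of its exon length overlapped by a gene on the opposite strand. Zfp91, which promotes ubiquitination of the kinase NIK, had 74 and 73 counts against 156 and 118 (0.95 ± 0.21 SE). Zfp830, a splicing-associated factor, had 40 and 53 counts against 22 and 18 (-1.16 ± 0.35 SE, adjusted p = 0.00257) and did not pass without NSD1B WT library 2 (-0.94) or in the DESeq2 test (-1.14).

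The 6 members of known function that did not pass had log2 fold changes of -0.39 to 0.30. Zfp318, which mature B cells need to make IgD, had 112 and 119 counts against 96 and 74 (-0.39 ± 0.21 SE, adjusted p = 0.0829), and it passed with library size alone (-0.47), after removal of the length and GC trend (-0.48) and without NSD1B KO library 1 (-0.54). Zfp622, a second factor of large ribosomal subunit maturation, had 192 and 158 counts against 196 and 219 (0.30 ± 0.16 SE, adjusted p = 0.0742), and it passed without NSD1B WT library 1 (0.50) and without NSD1B KO library 1 (0.42). In the other 4 the libraries of the genotypes overlapped. They were Zfp281, a repressor of Nanog in embryonic stem cells (184 and 154 counts against 158 and 179), Zfp644, a partner of the H3 lysine 9 methyltransferases G9a and GLP (81 and 54 counts against 75 and 64), Zfp263 (66 and 68 counts against 53 and 72) and Zfp217, which binds the CoREST complex (41 and 69 counts against 39 and 52). Over all 19 members that did not pass, log2 fold changes ran from -0.39 to 0.73.

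The remaining 11 of the 30 known genes were no members. Zfp410, an activator of Chd4, had 1 and 0 counts against 33 and 22, and Zfp384 had 0 and 0 against 10 and 10. Zfp568, which represses a placental promoter of Igf2, had 12 and 19 counts against 0 and 0, Zfp608 had 19 and 20 against 0 and 0, Zfp335 had 15 and 11 against 9 and 21, and Zfp369 (NRIF2) had 4 and 0 against 20 and 23. Zfp521 and Zfp423, which both bind EBF1, had no count in any library, nor had Zfp609, and Zfp862 was not listed.

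The members with and without a KRAB domain were both split in direction. Of the 103 with the domain, 9 were at 0 in NSD1B WT and 18 at 0 in NSD1B KO (26.2% in all), 38 were higher, 30 lower and 8 not past. Of the 62 without it, 6 and 3 were at 0 (14.5% in all), 19 were higher, 23 lower and 11 not past. The median absolute log2 fold change of those counted in both genotypes was 1.36 with and 1.16 without the domain. Below 200 summed counts, 69.2% of 13 KRAB members and 18.2% of 11 others were at 0 in one genotype, and from 200 to below 400 counts 35.3% of 34 and 33.3% of 18. From 400 to below 800 counts the shares were 17.9% of 28 and 5.88% of 17, and at 800 or more 3.57% of 28 and 0 of 16, so the share was larger with the domain in each class, least so from 200 to below 400 counts, and this was not tested. In the other 208 genes with a C2H2 finger and at least 100 counts, 13.0% were at 0 in one genotype and the median absolute log2 fold change was 1.14. Sets taken by symbol alone can overlap these 208 genes. The 26 Zbtb genes had 5 higher, 9 lower, 8 not past and 2 at 0 in each genotype, and the 7 Zkscan and Zscan genes had 2 higher, 2 lower, 1 not past and 1 at 0 in each genotype. The 15 genes with other Zfp symbols had 8 higher, 5 lower, 1 not past and 1 at 0 in NSD1B KO.

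**Figure D4:**
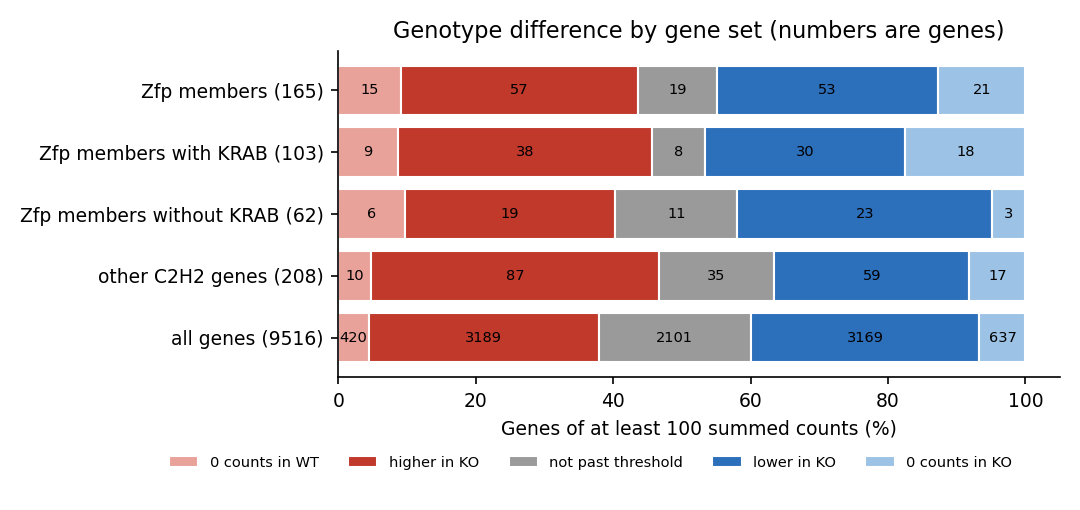
Percent of genes with at least 100 summed counts that were at 0 counts in NSD1B WT, higher in NSD1B KO, not past the threshold, lower in NSD1B KO or at 0 counts in NSD1B KO, for 5 gene sets, with the number of genes in each section. Members with a KRAB domain have the largest share at 0 counts in NSD1B KO, with 18 of 103, against 637 of all 9516 genes.

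The proteins through which KRAB zinc finger proteins act were examined as a list of 25 partner genes, of which 5 were higher, 10 lower and 8 not past the threshold, 1 was at 0 in NSD1B WT and 1, Uhrf1, had no count. The share called, 65.2% of the 23 counted in both genotypes, stood beside 75.2% of all genes of at least 100 counts and counted in both. Trim28, the corepressor that binds the KRAB domain, had 399 and 422 counts against 1 and 5 (log2 fold change -6.98 ± 0.29 SE), so both NSD1B KO libraries were near 0. It passed the filter of the test only through NSD1B WT, so no p-value is given. Setdb1, the methyltransferase it recruits, had 209 and 215 counts against 52 and 73 (-1.70 ± 0.20 SE). Of the HUSH complex, which spreads H3 lysine 9 methylation, Tasor had 197 and 225 counts against 42 and 31 (-2.47 ± 0.21 SE) and Pphln1 had 567 and 515 against 219 and 151 (-1.50 ± 0.13 SE). The third subunit, Mphosph8, had 201 and 213 against 239 and 189 and did not pass, while Morc2a, which works with the complex, had 0 and 0 counts against 77 and 64, at least 48.8-fold higher.

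Heterochromatin protein genes went in different directions. Cbx5 had 156 and 173 counts against 9 and 37 (-2.77 ± 0.29 SE), Cbx1 had 353 and 338 against 728 and 618 (1.01 ± 0.10 SE) and Cbx3 had 394 and 383 against 568 and 448 (0.44 ± 0.11 SE). Among subunits of the NuRD deacetylase, Chd4 had 373 and 337 counts against 111 and 94 (-1.74 ± 0.15 SE) and Hdac2 had 210 and 196 against 711 and 594 (1.74 ± 0.11 SE). Rbbp7 (-0.64 ± 0.08 SE) and Mta2 (-0.92 ± 0.30 SE) were lower. Hdac1, with 442 and 436 against 488 and 463, did not pass, nor did Chd3 and Rbbp4. Smarcad1, a remodeller that binds TRIM28, had 100 and 111 counts against 490 and 428 (2.17 ± 0.14 SE). The 25 genes together held 1777 and 1728 against 1681 and 1555 CPM.

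Along the chromosomes, 52 members lay in 6 runs of 4 or more members, in which numbered Zfp genes started within 500 kilobases of the next. For comparison, 4.41% of all genes of at least 100 counts were at 0 in NSD1B WT and 6.69% in NSD1B KO. Of those counted in both genotypes, 37.7% were higher and 37.5% lower. No run was tested against these shares. In the longest run, chr17:21008903-23599487, 10 of 15 members were lower, 2 were higher, 2 were at 0 in NSD1B WT and 1 at 0 in NSD1B KO. Zfp677, at 0 in NSD1B WT, lay there between Zfp160 and Zfp51, which were both lower, and Zfp53, which was higher, lay between Zfp51 and Zfp52. Zfp52 had 311 and 298 counts against 197 and 156 (-0.73 ± 0.14 SE). The members of the runs named in this and the next 2 paragraphs were chosen by position, after their values were seen.

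The divergent pairs shown above lay in the same run. Zfp942 (254 and 202 counts against 0 and 0) and Zfp943 (291 and 290 counts against 138 and 131, -1.06 ± 0.15 SE), with overlapping promoter windows, were both on the lower side, Zfp943 past the threshold and Zfp942 at 0 in NSD1B KO. Zfp944 (187 and 177 counts against 15 and 25) and Zfp758 (224 and 202 counts against 364 and 317, 0.73 ± 0.13 SE) were called in opposite directions, although they share a promoter region. At the end of the run, Zfp945 had 813 and 775 counts against 346 and 357 (-1.12 ± 0.10 SE) and Zfp946 had 232 and 227 counts against 59 and 66 (-1.82 ± 0.19 SE).

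In the run at chr13:66669928-67827002, 4 of 12 members were at 0 in NSD1B KO, 1 was at 0 in NSD1B WT, 4 were lower and 3 higher, and neighbours such as Zfp457 (at 0 in NSD1B KO) and Zfp595 (at 0 in NSD1B WT) differed in direction. In the run at chr17:32765496-33631779, Zfp763 (at 0 in NSD1B WT) lay beside Zfp563 (at 0 in NSD1B KO), with 4 others higher, 3 lower and 1 not past. At chr9:20345136-20605409, 4 of 5 members were higher and 1 lower, a small run beside the 37.7% higher and 37.5% lower of all such genes. On chromosome 7, the run of 5 at chr7:29768552-30169750 held 2 higher members, 1 at 0 in each genotype and 1 not past, and the run of 5 at chr7:127233061-127885996 held 1 higher, 1 lower, 1 at 0 in NSD1B WT and 2 at 0 in NSD1B KO.

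**Figure D5:**
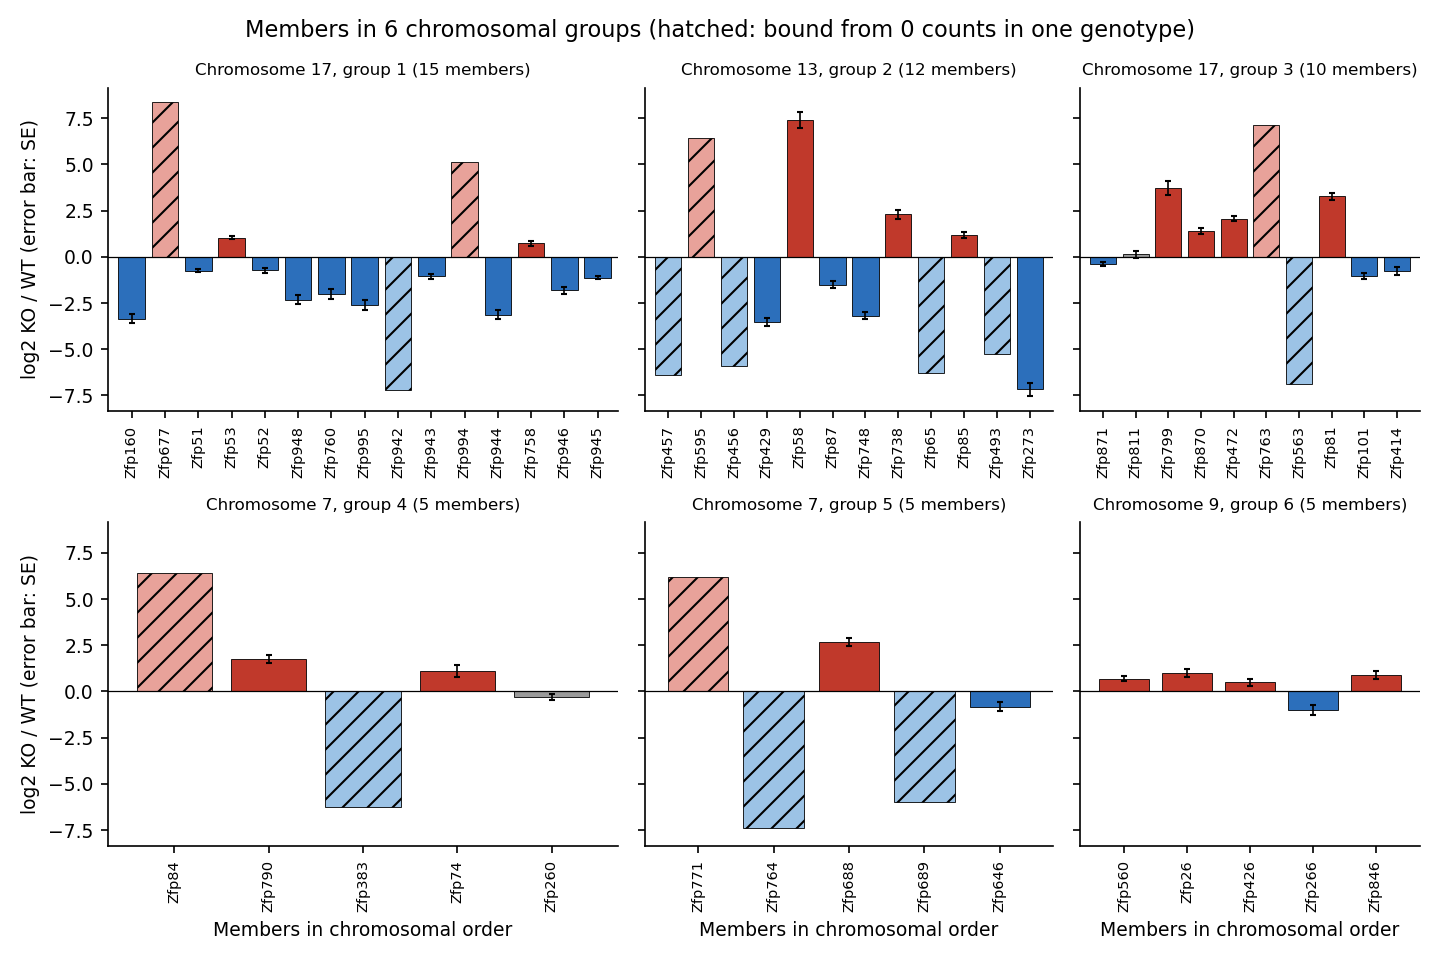
Log2 fold change of NSD1B KO over NSD1B WT for the 52 members in 6 chromosomal runs, in order along the chromosome, with SE as error bars and hatched bars for the lower bound of members at 0 counts in one genotype. The bars of Zfp58 and Zfp273 rest on 2 and 3 counts in one genotype. Each of the 6 runs holds bars in both directions, and 11 of 15 bars of the longest run on chromosome 17 point down. Of all genes of at least 100 counts, 6.69% were at 0 in NSD1B KO, and 37.5% of those counted in both genotypes were lower.

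Over all 69 pairs of neighbouring members within 500 kilobases, 25 (36.2%) went the same way, counting genes at 0 by their direction, 36 (52.2%) went opposite ways, and in 8 at least 1 did not pass. Of 8320 neighbouring pairs of any genes of at least 100 counts, 33.6% went the same way and 27.7% opposite ways. Pairs of neighbours share members and are not independent, and no test was made of these shares.

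Members' promoter windows held fewer CpG dinucleotides than those of all genes of at least 100 counts, with a median of 14 over 139 windows against 21 over 6877. The median was 11 in the 90 members with a KRAB domain and 20 in the 49 without. It was 13 in the 13 windows of members at 0 in NSD1B WT, 12.5 in the 16 of members at 0 in NSD1B KO, 13.5 in the 52 of higher members and 13 in the 42 of lower ones, so these classes were alike in it, while the 16 windows of members that did not pass had a median of 17.5. Read on both strands, the motif CCAAT was in 51.8% of members' windows against 38.7% of all, the GC box GGGCGG in 54.0% against 65.5%, the ETS core CCGGAAG in 22.3% against 22.2%, ATGGCGG, a part of the YY1 motif, in 13.7% against 9.79%, and TATAAA in 5.04% against 7.10%. GGGCGG and ATGGCGG share their last letters, and none of the 5 motifs lies whole within another. The windows of higher and lower members held CCAAT in 57.7% and 47.6% and GGGCGG in 50% and 54.8%.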

How the data were processed

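RNA of B220+ spleen cells was measured in 2 NSD1B WT and 2 NSD1B KO libraries. The authors deposited whole-number read counts per gene, 1 value per gene and library, not normalized and not scaled by length. The processing notes of the submitters name Bowtie2, Cufflinks and the build mm10, while the program that counted, the strand option and the gene annotation release were not given in the sources used here. Left out were 5 closing lines that name no gene, among them reads on no gene, which made up 44.3% to 44.6% of the counted reads. Reads without a unique position added 11.2% to 13.2%.

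Counts were scaled by TMM and tested with the quasi-likelihood test of edgeR 4.0.16 in R 4.3.3, NSD1B KO against NSD1B WT, over all 11657 genes kept by filterByExpr (minimum count 10, minimum total 15), with Benjamini-Hochberg adjustment. The fold limit of 1.2 and the p limit of 0.05, taken as adjusted, follow the study's methods. With 2 libraries against 2, an exact permutation test of 1 gene cannot reach 0.05, so none was made. All 165 members passed the filter, 15 and 21 of them with counts in 1 genotype alone. Some members counted in both genotypes also passed it through 1 genotype only, among them Zfp110 through NSD1B KO and Zfp362 through NSD1B WT. In simulated data with these depths and 200 changed genes, 185 were recovered. Far more genes were called in the real data (9119 of 11657), so that recovery does not carry over to them. A genotype at 0 was given a floor of 3 counts over both libraries. Levels are CPM. GENCODE M21, matched by 99.5% of identifiers, supplied positions, exon lengths and proteins, and the KRAB profile was searched with pyhmmer 0.12.3.

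The members and lists were chosen with earlier results of these data known, so no list was given a test. Named members are the 10 largest increases and 10 largest decreases among called members with at least 4 counts in each genotype and genotypes that do not overlap, the 6 members of most counts at 0 in each genotype, the 8 of highest mean CPM, 30 genes of known function and the members next to the minimum. Members named outside this rule are marked in the text or stand in a group of 5 or fewer, and were picked with their values in view. Partner genes, family counts and marker genes came from fixed lists. Alternatives were the size factors of DESeq2 1.42.0 and its Wald test, library size alone, other filters and limits, each library left out, the replicate number as a block, and removal of a loess trend on exon length and GC.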

Additional observations from a re-analysis of the deposited data

How the results depend on the processing

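Of the 110 calls among members counted in both genotypes, between 99 and 109 remained in each of the 11 alternatives that kept all 129 members in the fit, and 91 remained when at least 1 CPM was required in all 4 libraries, which left 18 members out. No call changed direction. The higher and lower members numbered 57 and 51 with the replicate block, and the replicate numbers were not taken as pairs, since only 2 pairs exist and the deviations of same-numbered libraries correlated at 0.105. The median log2 fold change of the members (0.10) was 0.017 with library size alone, -0.11 with the length and GC trend removed, -0.12 with that trend and the replicate block, and 0.15 to 0.18 with 1 library left out (0.18 without NSD1B WT replicate 1). Over all tested genes, the requirement of 1 CPM in all 4 libraries gave 2855 higher and 2991 lower genes, against 4324 and 4795, because fewer genes were tested. With a minimum of 200 counts, 12 and 13 members were at 0 in NSD1B WT and NSD1B KO, with a minimum of 50 counts 18 and 31, and with up to 3 counts taken as 0, 17 and 24. With limits of 1e-05 on the adjusted p and 0.5 on the log2 scale, 43 members were higher and 43 lower.

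Of 493 values of the 42 named members counted in both genotypes, 464 kept their direction and their side of the threshold. The reversed values belong to members that did not pass. Zfp281 (0.05) became -0.026 with library size alone, -0.19 with the length and GC trend removed, -0.20 with that trend and the block, and -0.085 to 0.24 with 1 library left out, below 0 without NSD1B WT replicate 2 (-0.061) or NSD1B KO replicate 2. Zfp644 (0.09) became -0.064 with the trend removed, -0.052 with the block added, and -0.16 to 0.46 with 1 library left out, the lowest without NSD1B WT replicate 2. With 1 library left out, Zfp217 (-0.21) ran from -0.49 to 0.22, above 0 without NSD1B WT replicate 2 or NSD1B KO replicate 1 (0.021), and Zfp263 (-0.04) from -0.33 to 0.20, above 0 without NSD1B KO replicate 1. The causes were not tested. With 1 library left out, its genotype is assumed to vary like the other. Genes of few counts limit the folds: a genotype at 0 gives only a bound.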
